A study of Mus musculus with 6 samples.

Results

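The 7 genes described here encode chemokines and were picked by symbol from the 32285 genes in the feature tables: Cxcl9 (ENSMUSG00000029417), Cxcl10 (ENSMUSG00000034855), Cxcl2 (ENSMUSG00000058427), Ccl3 (ENSMUSG00000000982), Ccl4 (ENSMUSG00000018930), Ccl5 (ENSMUSG00000035042) and Ccl9 (ENSMUSG00000019122). All 7 were found once. Their transcripts were followed in single LSK cells, the bone marrow fraction that lacks lineage markers and carries cKit and Sca1 and in which hematopoietic stem and progenitor cells (HSPCs) are enriched. Hosts were female, non-conditioned C57BL/6J (CD45.1) mice aged 8 to 12 weeks. The AML group had been given 1000000 cells of C1498, a murine acute myeloid leukemia (AML) line that carries CD45.2, and the PBS group had been given PBS. All mice were sacrificed at day 21, and CD45.1+ LSK cells were sorted from femur and tibia after lineage depletion, a gate set to collect host cells and leave out CD45.2+ leukemia cells. C1498 is 1 cell line, and the leukemia therefore stands for that line. There were 3 libraries per group, and the authors' table of cells holds 16822 cells from 5 of them and 0 from AML replicate 2.

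Chemokines are small secreted proteins that guide leukocytes through G protein-coupled receptors. CXCL9 and CXCL10 are induced by interferons and act on CXCR3 of activated T and NK cells. CCL3, CCL5 and CCL9 are ligands of CCR1, which is found on monocytes and other myeloid cells, and CCL4 is a close relative of CCL3. CXCL2 binds CXCR2 and recruits neutrophils. In bone marrow, Ccl3 and Ccl9 are also known from hematopoietic progenitors and myeloid cells, and Ccl5 is best known from T and NK cells and platelets.

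In GRCm38 (GENCODE M21), the 4 Ccl genes lie on chromosome 11 and the 3 Cxcl genes on chromosome 5. Ccl5 is at chr11:83525778-83530518 on the minus strand, followed by Ccl9 at chr11:83572919-83578636 and Ccl3 at chr11:83647844-83649355, both on the minus strand, and by Ccl4 at chr11:83662584-83664683 on the plus strand. Ccl3 and Ccl4 are separated by 13.2 kb with 0 protein-coding genes between them. Cxcl2 is at chr5:90903871-90905938 on the plus strand. Cxcl9 at chr5:92321347-92328079 and Cxcl10 at chr5:92346638-92348889 are neighbours on the minus strand, 18.6 kb apart with 0 protein-coding genes between them. Art3 overlaps Cxcl10 on the opposite strand, and the strand setting of the counting is not given in the sources read here.

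The 250 bases before the annotated start are shown for the neighbours Cxcl10 and Cxcl9, whose transcripts were counted as unique molecular identifiers (UMIs). The pair was chosen after the values were seen, and whether these letters have a part in the levels was not tested. They are RefSeq sequences of GRCm38.p6, printed 5′ to 3′ on the gene's strand, and capitals mark matches to the interferon-stimulated response element (ISRE, searched as GAAANNGAAA) or to the NF-kB motif, both searched on both strands.
Cxcl10 (chr5:92348890-92349139, minus strand): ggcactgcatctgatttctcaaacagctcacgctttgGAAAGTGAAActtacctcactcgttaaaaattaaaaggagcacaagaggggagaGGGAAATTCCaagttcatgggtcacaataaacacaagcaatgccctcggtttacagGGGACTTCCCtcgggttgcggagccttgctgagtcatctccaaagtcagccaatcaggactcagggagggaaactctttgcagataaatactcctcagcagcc
Cxcl9 (chr5:92328080-92328329, minus strand): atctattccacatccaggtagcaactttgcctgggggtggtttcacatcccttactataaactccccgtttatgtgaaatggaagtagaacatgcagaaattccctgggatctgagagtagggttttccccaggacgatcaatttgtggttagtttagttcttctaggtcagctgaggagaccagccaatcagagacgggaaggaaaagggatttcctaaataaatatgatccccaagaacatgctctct
The Cxcl10 window holds 1 ISRE match at -213 to -204 from the start and 2 NF-kB matches, at -159 to -150 and -103 to -94. The Cxcl9 window holds no match to either, nor to the gamma-activated site searched as TTCNNNGAA. Over 32851 mouse promoters of the same length, the ISRE letters occur in 2.98%, the NF-kB motif in 3.90% and TTCNNNGAA in 7.02%. Promoters of 5 of the 7 genes were found (all but Ccl4 and Ccl5). Those of Cxcl2 and Ccl9 hold NF-kB matches ending 88 or 87 bases and 26 bases before the start, and that of Ccl3 holds no match to the 3 motifs. A match describes letters and is not a measured binding site, and a window without a match can still hold a site of other letters.

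Libraries differed strongly in size. The kept cells numbered 6838, 934 and 4398 in PBS replicates 1 to 3 and 693 and 3959 in AML replicates 1 and 3, with between 1945659 (AML replicate 1) and 32123508 (PBS replicate 1) UMIs in all. The median cell carried 2393 UMIs in AML replicate 1, against 4015 to 9586 in the other 4 libraries, and AML replicate 1 is therefore the least precise library. Levels are given in CPM, a gene's UMIs per 1000000 UMIs of the same cells. Any 2 libraries shared 0 to 12 kept barcodes. Kit was found at 79.7 to 104 CPM and Ly6a, which encodes Sca1, at 101 to 203 CPM in the 5 libraries. Hlf was at 129 to 141 CPM in PBS and 79.2 and 93.5 CPM in AML. Mecom, Procr and Slamf1 were also lower in both AML libraries than in every PBS library, whereas Cd34 and Ptprc overlapped. Markers of other cells were summed as lists. T and NK cell markers were at 157 to 183 CPM in PBS and 188 and 191 CPM in AML. Dendritic markers were at 400.3 to 461 CPM in PBS and 466 and 599 CPM in AML. The groups overlapped for the other lists (monocytes and macrophages 60.1 to 136 CPM, B cells and plasma cells 9718 to 13335 CPM, erythroid cells 50.9 to 502 CPM, neutrophils 3.94 to 18.6 CPM, basophils and mast cells 34.9 to 88.4 CPM). In AML replicate 1, Cd3e, Cd3g, Gzma and Prf1 of the T and NK list and Siglech, Cd209a, Xcr1 and Ccr9 of the dendritic list were at 0. Whether replicates were separate mice is not stated sample by sample, so p-values measure the spread between these libraries.

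Pooled over the 5 libraries, Ccl4 had the most UMIs of the 7 genes, 18699 with 11250 of them in PBS replicate 1, ahead of Ccl3 (5150), Ccl5 (3757) and Ccl9 (3025). The order differed in AML, where Ccl5 was first in replicate 1 (204 UMIs, 162 of them in 4 cells, against 118 of Ccl4) and above Ccl3 in replicate 3 (1828 against 1344). Cxcl10 (625 UMIs), Cxcl9 (68) and Cxcl2 (51) were rare. These counts are levels of each gene and are not scaled to transcript length, as the libraries read the 3′ end. Ccl4 stood at 350.2, 129 and 120.2 CPM with PBS, and at 60.6 and 118 CPM with AML. PBS replicate 1 was far above all others, and AML replicate 3 was next to PBS replicate 3. Ccl3 was at 70.2, 47.5 and 44.0 CPM in PBS and 28.8 and 48.7 CPM in AML, and Ccl9 at 29.1, 17.2 and 28.8 CPM in PBS and 23.1 and 43.8 CPM in AML. For both genes the groups overlapped.

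Ccl5 was at 23.6, 6.15 and 39.7 CPM in PBS and at 105 and 66.2 CPM in AML, so that both AML libraries lay above all 3 PBS libraries. Cxcl10 was at 1.74, 1.06 and 6.20 CPM in PBS and 5.65 and 14.7 CPM in AML, and PBS replicate 3 lay above AML replicate 1. PBS libraries gave 12, 5 and 23 UMIs of Cxcl9 (0.374, 0.481 and 1.01 CPM), AML replicate 1 gave 0 and AML replicate 3 gave 28 (1.01 CPM). For Cxcl2 the PBS libraries gave 19, 1 and 3 UMIs, AML replicate 1 gave 0 and AML replicate 3 gave 28. In AML replicate 1 a count of 0 allows up to 3 UMIs, or 1.54 CPM, which is above every measured level of Cxcl9 and Cxcl2, so nothing can be said of those genes there.

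**Figure D1:**
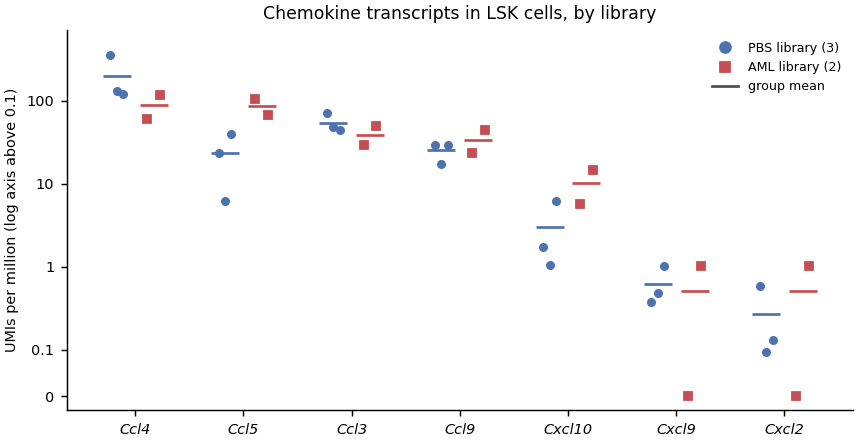
CPM in all LSK cells (vertical axis, logarithmic above 0.1) for the 7 chemokine genes, with 1 circle per PBS library, 1 square per AML library and a line at the group mean. Both AML squares lie above all PBS circles for Ccl5 (66.2 and 105 against 6.15 to 39.7) and below them for Ccl4 (60.6 and 118 against 120.2 to 350.2), and the groups overlap for the other 5 genes.

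The genes differed in how many cells carried them. At least 1 UMI of Ccl4 was found in 5299 of 16822 cells (31.5%, exact Clopper-Pearson 95% interval 30.8 to 32.2), of Ccl3 in 2861 (17.0%), of Ccl9 in 2343 (13.9%) and of Ccl5 in 701 (4.17%, 3.87 to 4.48). Cxcl10 was seen in 204 cells (1.21%, 1.05 to 1.39), Cxcl9 in 36 (0.214%) and Cxcl2 in 26 (0.155%). Of all cells, 8588 had no UMI of any of the 7 genes, 5525 had UMIs of 1 gene, 2229 of 2 genes and 4 cells of 5 genes. These intervals cover counting error only.

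Free RNA in droplets can put UMIs into cells that do not express a gene, and the 102 cells of cluster 7, whose erythroid markers sum to 12976 CPM, served as the level to compare with (median 6380 UMIs per cell, against 4564 in cells without Cxcl10). In them Ccl3, Cxcl9 and Cxcl2 were in 0 cells, which allows a share of up to 2.94%, Ccl9 in 5 (4.90%), Ccl4 in 9 (8.82%) and Ccl5 and Cxcl10 in 1 cell each (0.980%). The single Ccl5-positive cell of cluster 7 held 20 UMIs. The overall shares of Ccl3, Ccl4 and Ccl9 were above these levels. For Ccl5 the overall share was above 0.980%, but a level from 1 of 102 cells is too imprecise to place it. The overall shares of Cxcl10, Cxcl9 and Cxcl2 were close to or below what 102 cells can show. For these 3 genes a share of cells with 1 UMI is not read as expression.

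The transcripts were concentrated in very different ways. Only 17 cells held 50% of all Cxcl10 UMIs, and 29 cells held 50% of those of Ccl5, against 699 cells for Ccl3, 794 for Ccl4 and 831 for Ccl9. For Cxcl10, 12 cells with 10 or more UMIs held 272 of its 625 UMIs (43.5%), with a maximum of 48 UMIs in a cell of PBS replicate 3 and 44 in a cell of AML replicate 3. For Ccl5, 73 cells with 10 or more UMIs held 69.8% of the UMIs, and the highest cell, in PBS replicate 3, held 252. Ccl9 was the opposite, with at most 6 UMIs in a cell and 78.1% of its carriers at 1 UMI. Ccl3 was similar, with at most 15 UMIs and 61.1% of carriers at 1 UMI.

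Ccl4 combined a wide spread with cells of high content. Of its 439 cells with 10 or more UMIs, 338 were in PBS replicate 1, where they held 46.0% of the UMIs of that library. The high Ccl4 level of PBS replicate 1 was thus made of many cells. In contrast, 1 cell of AML replicate 3 held 18 of the 51 Cxcl2 UMIs, and 8 cells held 50% of the 68 Cxcl9 UMIs.

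**Figure D2:**
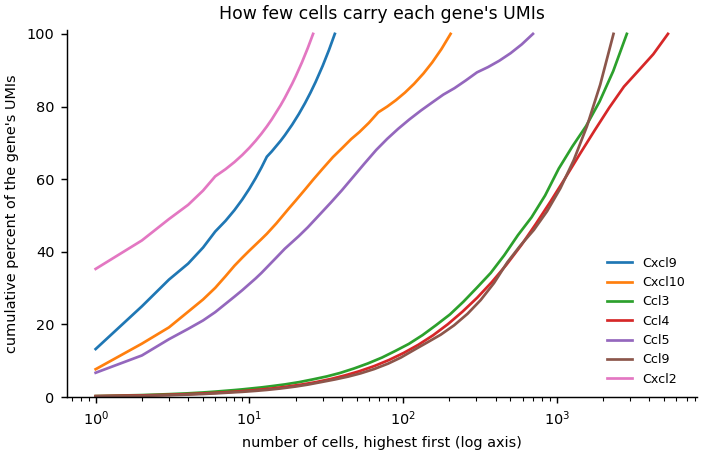
Cumulative percent of each gene's UMIs (vertical axis) against the number of cells, ordered from the highest cell down (logarithmic horizontal axis), over all 16822 cells of the 5 libraries. The Cxcl10 and Ccl5 lines pass 50% at 17 and 29 cells, whereas those of Ccl3, Ccl4 and Ccl9 do so at 699 to 831 cells.

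Carriers were deeper cells for some genes. The median was 6719 UMIs per cell in carriers of Cxcl10 against 4564 in other cells, 6381 against 4369 for Ccl9 and 5782 against 4540 for Ccl5. These pooled medians mix libraries of different depth, and 121 of the 204 Cxcl10 carriers were in AML replicate 3. Within libraries, carriers of Cxcl10 had medians of 4256, 11987 and 4901 UMIs in PBS, against 4015, 9585 and 4386 in other cells. In AML they had 2217 and 8854, against 2399.5 and 5876, and were thus not deeper in AML replicate 1, with 5 carriers. For Ccl3 (4544 against 4583) and Ccl4 (4669 against 4532) carriers and other cells were of like depth. The part of depth in who carries a UMI was not tested.

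The authors' classes are named for hematopoietic stem cells (HSC) and for multipotent progenitors, numbered as MPP-2, MPP-3 or MPP-4, and go with the highest of 4 module scores per cell. They are ranges of a score, since 7379 of 16822 cells (43.9%) had their top scores within 0.05 of each other. Comparisons of levels between classes and clusters are descriptions without a test. MPP-4, the lymphoid-primed progenitor in common usage, made up 38.4% of cells and 32.7% of all UMIs and held 74.9% of Ccl3 UMIs and 63.8% of Ccl4 UMIs. Ccl3 was at 152, 101 and 111 CPM in MPP-4 of the PBS libraries and at 71.3 and 111 CPM in MPP-4 of the AML libraries. In the other 3 classes no library was above 40.8 CPM, so MPP-4 was highest in every library.

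Ccl4 was also highest in MPP-4 in every library, at 659, 217 and 221 CPM in PBS and 108 and 230.4 CPM in AML, but it was broader, with 118 to 235 CPM in the HSC class of the PBS libraries. The ratio of Ccl4 to Ccl3 UMIs over all libraries was 6.90 in the HSC class and 3.09 in MPP-4, with 4.91 and 4.47 in MPP-2 and MPP-3. The HSC class had the highest ratio in the 3 PBS libraries, whereas in AML replicate 3 MPP-2 was at 3.39 and the HSC class at 3.30. In the HSC class the ratio was 8.61, 8.16 and 7.48 in the PBS libraries and 3.30 in AML replicate 3, with only 5 and 2 UMIs of the pair in AML replicate 1. PBS and AML libraries did not overlap in this ratio in the HSC class, in MPP-2 (4.40 to 6.47 in PBS, 2.35 and 3.39 in AML) or over all cells (2.72 to 4.99 in PBS, 2.11 and 2.42 in AML), and they overlapped in MPP-3 and MPP-4. The ratio was chosen after the values were seen and has no test.

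Ccl9 was highest in MPP-3, a myeloid-biased class, in each library, at 39.6, 44.3 and 43.4 CPM in PBS and 40.6 and 66.0 CPM in AML, and lowest in the HSC class in 4 of 5 libraries (4.56 to 17.2 CPM over all 5). MPP-4 followed closely in PBS replicates 1 and 3, at 38.5 and 37.8 CPM. Ccl5 UMIs were split between MPP-4 (35.0%), MPP-3 (33.9%) and MPP-2 (24.2%). In CPM, MPP-3 was the highest class for Ccl5 in all 5 libraries, from 15.3 CPM in PBS replicate 2 to 161 CPM in AML replicate 1. That order went with cluster 8, rich in T and NK markers, whose 72 MPP-3 cells held 802 of the 1273 Ccl5 UMIs of the class. With cluster 8 left out, a choice made after the values were seen, MPP-3 was at 30.9 CPM and MPP-4 at 41.5 CPM over all libraries, and MPP-3 was highest in AML replicate 1 alone. Of the 68 Cxcl9 UMIs, 42.6% were in MPP-3, which holds 14.1% of cells.

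Class and cluster gave different pictures for Cxcl10. Its UMIs were spread over all classes (18.4% in HSC cells, 30.1% and 25.0% in MPP-2 and MPP-3, 26.6% in MPP-4), close to the class shares of all cells except for more MPP-3 and less MPP-4. By cluster, however, 384 of 625 UMIs (61.4%) were in the 78 Cxcl10-positive cells of cluster 2, which holds 22.2% of cells. Cluster 2 is mostly MPP-4 (3000 of 3733 cells), and yet those MPP-4 cells held only 122 of the 384 UMIs, a level of 8.36 CPM. Its 140 HSC-class cells held 81 UMIs (151 CPM), its 375 MPP-2 cells 99 UMIs (34.3 CPM) and its 218 MPP-3 cells 82 UMIs (76.3 CPM). These rest on few cells, since the UMIs were in 20 HSC-class cells, 13 MPP-2 cells and 5 MPP-3 cells, of which 2, 3 and 3 held 10 or more, and in 40 MPP-4 cells, of which 2 did. By library, cluster 2 was at 4.57, 3.36 and 22.9 CPM of Cxcl10 in PBS and 23.2 and 42.0 CPM in AML. All 7 Cxcl10 UMIs of AML replicate 1 in cluster 2 were in 1 cell.

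Cluster 2 also held 44.0% of Ccl3 UMIs, 39.2% of Ccl4 UMIs and 28.7% of Ccl5 UMIs. Pooled over libraries, it was the cluster with the highest Ccl3 level, 119 CPM, against 0 to 59.0 CPM in the others, and the highest Ccl4 level, 384 CPM, against 16.6 to 217 CPM. In AML replicate 1, Ccl3 was at 33.1 CPM in cluster 2 and at 60.2 CPM in cluster 3, each from 10 UMIs. Of the 12 cells with 10 or more Cxcl10 UMIs, 10 were in cluster 2, 7 of them from AML replicate 3 and 3 from PBS replicate 3. Those 12 cells had a dendritic marker sum of 1590 CPM, against 487 CPM in cells without Cxcl10 and 783 CPM in all cells of cluster 2. The dendritic list includes Flt3, which lymphoid progenitors also express. Their sum of LSK markers was 1448 CPM, against 871 CPM in cells without Cxcl10 and 822 CPM in cluster 2. The part of other cell types in Cxcl10 was not tested.

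Cluster 4, mostly MPP-3 (564 of 826 cells), held 27 of 68 Cxcl9 UMIs in 9 cells and 15.2% of Ccl9 UMIs, with the highest Ccl9 level of all clusters (62.6 CPM). Within it, 16 of the Cxcl9 UMIs came from 3 cells of PBS replicate 3 and 10 from 5 cells of AML replicate 3. The neighbours Cxcl9 and Cxcl10 thus had their largest shares in different clusters, and they were found together in 5 cells, which are 13.9% of the Cxcl9 carriers and 2.45% of the Cxcl10 carriers. Cxcl10 was in 1.19% of cells without Cxcl9.

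Cluster 8 was small and rich in Ccl5. Its 113 cells (0.672% of all) held 952 of 3757 Ccl5 UMIs (25.3%), and 70 of them (61.9%) had a Ccl5 UMI. The T and NK cell markers summed to 1523 CPM in cluster 8 and to 36.2 to 215 CPM in the other clusters. In cluster 8, Ccl5 was at 883, 217 and 1813 CPM with PBS (28, 5 and 23 cells) and at 475 and 2777 CPM with AML (5 and 52 cells). The other clusters, pooled over libraries, were at 7.48 to 56.4 CPM. Outside cluster 8, 39 cells had 10 or more Ccl5 UMIs, and their T and NK marker sum was 317 CPM, against 172 CPM in cells without Ccl5. Their B and plasma cell marker sum was 41106 CPM, against 12110 CPM, but 1 of the 39 cells was in cluster 6, where that sum was 590214 CPM, and the share of cells with such a marker was 71.8% against 70.1%. Dendritic markers summed to 620 CPM against 489 CPM. The part of these cell types in Ccl5 was not tested.

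**Figure D3:**
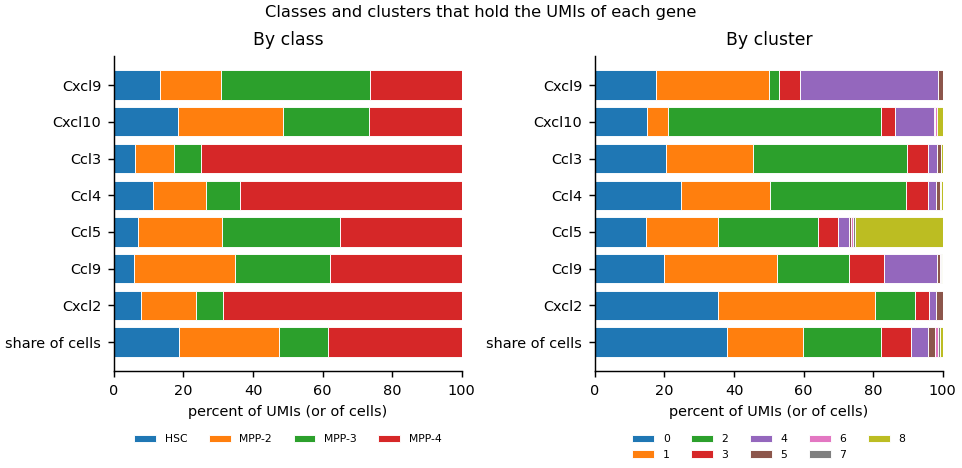
Percent of each gene's UMIs (horizontal axis) by the authors' class (left) and cluster (right), pooled over 5 libraries, with the share of cells as the lowest bar. MPP-4 takes 74.9% of Ccl3 and 63.8% of Ccl4, cluster 2 takes 61.4% of Cxcl10, cluster 4 takes 39.7% of Cxcl9 and cluster 8 takes 25.3% of Ccl5 with 0.672% of cells.

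Ccl3 and Ccl4, direct neighbours in the genome, were found together in 1539 cells, which are 53.8% of Ccl3 carriers and 29.0% of Ccl4 carriers. Among cells without Ccl3, 26.9% had Ccl4. Both genes were highest in MPP-4, and within that class Ccl4 was in 56.1% of Ccl3 carriers and in 37.4% of other cells. In each library Ccl4 was more frequent among Ccl3 carriers (59.7, 60.1 and 45.2% in PBS, 33.3 and 51.1% in AML) than among the other cells (30.9, 38.5 and 23.7% in PBS, 11.0 and 24.4% in AML). Cxcl10 and Ccl5 shared 32 cells, 15.7% of the Cxcl10 carriers, and Ccl5 was in 4.03% of cells without Cxcl10. Carriers of Cxcl10 were also deeper cells in 4 of 5 libraries, as given above, and both genes were detected more often in AML replicate 3 than in the other libraries, so this overlap is given as a description.

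Over the 38 sums per library and cluster with at least 20 cells, the genes whose log2(CPM + 1) went most like that of Ccl3 were Flt3 (Pearson's r 0.895), the receptor tyrosine kinase of lymphoid and dendritic progenitors, Mpnd (0.890) and Tbc1d10c (0.881), among 7725 genes compared. For Ccl9 they were Prtn3 (0.829), a granule protease of myeloid progenitors, Pycard (0.815) and Napsa (0.814). For Ccl5 they were Klrb1c (0.774), the NK cell receptor NK1.1, Evl (0.767) and Il18r1 (0.760). Ccl4 went most like Trim26 (0.852), Lsp1 (0.830) and Smad7 (0.821). The points share libraries and depth, and the values are descriptions. The nearest genes to Cxcl10 were Il7r (0.577), Nup210 (0.569) and Evl (0.569), those to Cxcl9 were Cst3 (0.546), Prss34 (0.542) and Hexa (0.489), and those to Cxcl2 were Zfp26 (0.520), Ulk2 (0.482) and Ptpre (0.451), all on few UMIs.

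The comparison of AML with PBS asked whether the leukemic marrow changes these transcripts in healthy LSK cells. Class make-up differed between the groups. MPP-3 held 796 of 6838, 41 of 934 and 422 of 4398 cells in PBS, and 228 of 693 and 882 of 3959 in AML. The HSC class held 1401, 223 and 963 of these cells in PBS and 23 and 542 in AML. The part of class make-up in differences over all LSK cells was not tested. Over all LSK cells, 0 of the 7 genes passed an edgeR adjusted p of 0.05, where 0.160% of 14364 tested genes did. The ranges of 2 of the 7, Ccl4 (lower) and Ccl5 (higher), did not overlap between groups in CPM normalized by TMM (edgeR's scaling of library totals), against 32.0% of all tested genes. Ccl5 had the smallest adjusted p of the 7, at 1.80 ± 0.491 on the log2 scale (± SE; edgeR, adjusted p 0.212), followed by Cxcl10 at 1.81 ± 0.547 (0.264) and Ccl4 at -1.13 ± 0.402 (0.349). These 3 also had an unadjusted p under 0.05, as 1511 of all tested genes did (10.5%). The fits gave -0.44 ± 0.259 (0.549) for Ccl3, 0.45 ± 0.285 (0.575) for Ccl9, 1.36 ± 0.765 (0.539) for Cxcl2 and 0.35 ± 0.690 (0.878) for Cxcl9. DESeq2 and limma-voom called 0 of the 7. Ccl4 was at -0.52 without PBS replicate 1, and Cxcl10 passed at 2.99 (edgeR adjusted p 0.0205) without PBS replicate 3, the library whose 4 highest cells hold 68.1% of its 141 Cxcl10 UMIs.

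The Ccl5 call varied with the processing and passed in 4 of 14 alternatives. It passed with no filter on low counts (1.77, edgeR adjusted p 5.70e-10) and with the replicate block (1.42, 0.00611), whose numbers did not pair the libraries. When each library's number of cells with a UMI was tested in place of UMIs, an alternative added after seeing the data, Ccl5 passed with a log2 fold change of 1.60 (edgeR adjusted p 0.00238) and Cxcl10 with 1.75 (0.0468). With clusters 6, 7 and 8 left out, Ccl5 was at 1.83 (0.203). With cells chosen from all 6 libraries by at least 1000 genes and at most 10% mitochondrial UMIs, it passed at 1.83 (0.0260).

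The share of cells with a UMI was compared after thinning every cell to 2000 UMIs, which left out 125 and 80 cells of PBS replicates 1 and 3 and 0 of the others. Ccl5 was then found in 1.40, 1.06 and 1.55% of PBS cells and 3.59 and 4.57% of AML cells, against 2.40, 3.21, 2.68, 4.33 and 9.07% before thinning in the same order. Cxcl10 was in 0.309, 0.231 and 0.385% of PBS cells and 0.611 and 1.34% of AML cells (0.600, 0.964, 0.637, 0.722 and 3.06% before thinning). For both, the AML libraries lay above all PBS libraries, and the exact two-sided permutation test gave p = 0.1, the smallest that 3 against 2 libraries allow. With Ccl4, which was lower in AML, 3 of the 7 genes did not overlap in thinned shares, against 29.9% of all 14364 tested genes. Thinned in the same way, cluster 7 was at 0.154% for Cxcl10, from 1 UMI in 102 cells, and the Cxcl10 shares are not read as a difference by themselves. The mean shares were 4.08% in AML and 1.34 ± 0.249% (SD, n = 3) in PBS for Ccl5, with exact permutation p = 0.1. In 7 such tests, the other exact permutation p-values were 0.2 for Ccl4 (13.2% in AML, 20.6% in PBS), 0.5 for Ccl3 (7.35 and 9.47%), 0.6 for Ccl9 (5.77 and 4.63%), 0.7 for Cxcl9 and 0.9 for Cxcl2.

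In the HSC class, Cxcl10 and Ccl5 were called higher in AML on the strength of AML replicate 3. Here 5 of the 7 genes had enough counts and these 2 passed, where 0.178% of 10668 genes passed. After TMM scaling, ranges did not overlap for Cxcl10 and Ccl4, against 27.4% of all genes tested in this class. On plain CPM Ccl3 did not overlap either, with 2 UMIs in AML replicate 1. Cxcl10 was at 3.62, 1.14 and 5.07 CPM in PBS and 16.3 and 32.5 CPM in AML (log2 fold change 2.95 ± 0.419, edgeR adjusted p 4.46e-09). The value of AML replicate 1 was a single UMI in 23 cells, where 3 UMIs are 48.9 CPM, so the call rests on AML replicate 3. There, 76 UMIs were found in 16 of 542 cells, and 2 of these cells held 41 UMIs. Of the 76 UMIs, 55 were in 7 of the 23 HSC-class cells of cluster 2. The PBS libraries had 11, 1 and 14 UMIs in the 62, 8 and 44 HSC-class cells of that cluster.

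Ccl5 in the HSC class was at 12.7, 3.42 and 10.2 CPM in PBS and at 0 and 65.8 CPM in AML (2.47 ± 0.304, edgeR adjusted p 1.10e-12). A count of 0 in AML replicate 1 allows up to 3 UMIs, or 48.9 CPM, so that library cannot be placed above or below PBS. AML replicate 3 held 154 Ccl5 UMIs in 40 cells, and 75 of them were in 1 cell of cluster 0. When cells with a UMI were tested in place of UMIs, Cxcl10 was at 1.49 (edgeR adjusted p 1.0) and Ccl5 at 1.63 (0.391), and DESeq2 called neither. Without AML replicate 3, Cxcl10 was at 1.77 (0.773) and Ccl5 at -7.64 (0.747), the latter against 0 UMIs. Ccl4 was at 235, 144 and 118 CPM in PBS and 81.6 and 116 CPM in AML (-0.75 ± 0.296, edgeR adjusted p 0.992), and Ccl3 was at 15.8 to 27.3 CPM in PBS and 32.6 and 35.0 CPM in AML (0.62 ± 0.315, 0.992).

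**Figure D4:**
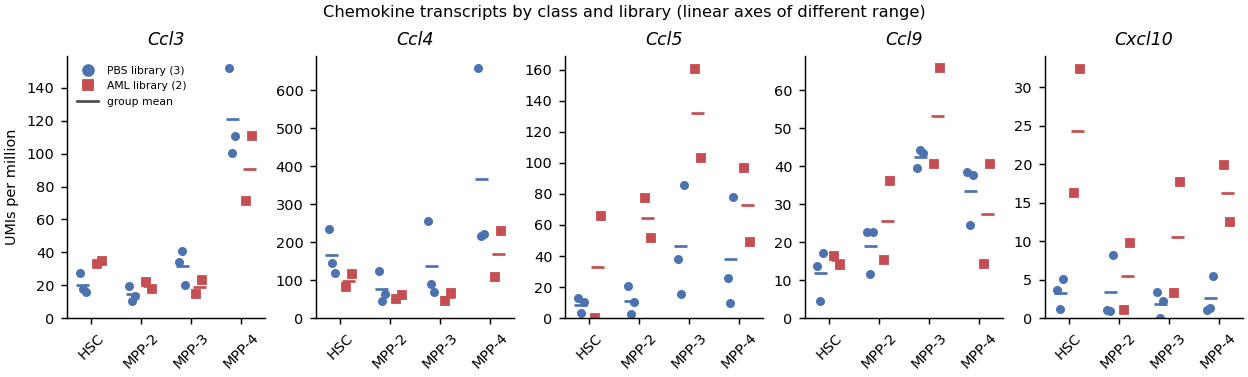
CPM (vertical axis, linear, with its own range per gene) in each of the authors' classes for the 5 genes with more than 100 UMIs, with 1 circle per PBS library, 1 square per AML library and a line at the group mean. MPP-4 is the highest class for Ccl3 and Ccl4 and MPP-3 for Ccl9, and in the HSC class the AML squares lie at 0 and 65.8 for Ccl5 and at 16.3 and 32.5 for Cxcl10.

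In MPP-2, 0 of 5 genes passed, where 0.0399% of 12518 genes did. Ccl5 alone had an unadjusted p under 0.05, against 7.56% of genes, and it was the 1 gene without overlap, against 29.0% of genes. Ccl5 was at 20.8, 2.67 and 10.4 CPM in PBS and at 77.3 and 51.9 CPM in AML (2.35 ± 0.428, edgeR adjusted p 0.0653). In AML replicate 1, 56 of the 71 UMIs were in 1 cell. In AML replicate 3, 168 of 487 were in 1 cell and 63 were in cluster 8. In PBS replicate 1, 107 of 240 were in 1 cell. With cluster 8 left out, Ccl5 was at 20.8, 2.67 and 5.42 CPM in PBS and 78.1 and 45.4 CPM in AML. It passed without PBS replicate 1 (3.04, 0.00293) and when cells with a UMI were tested (1.87, 0.00681). The Cxcl10 difference in MPP-2 was 0.97 ± 0.698 (edgeR adjusted p 0.721), with 79 UMIs in PBS replicate 3 and 92 in AML replicate 3.

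In MPP-3, 4 genes had enough counts and 0 passed, where 0.0486% of 10294 genes did, with 2 (Ccl4 and Ccl5) at an unadjusted p under 0.05, against 7.39% of genes. Ranges did not overlap for 3 of them (24.7% of all genes), with Ccl5 higher and Ccl4 and Ccl3 lower in AML. The ranges were taken after TMM scaling, where Ccl3 was at 13.6 and 21.6 CPM in AML and its lowest PBS library at 21.7 CPM, and on plain CPM Ccl3 overlapped (14.6 and 23.3 CPM in AML, 20.4 to 40.8 CPM in PBS; -0.69 ± 0.359, edgeR adjusted p 0.721). Ccl5 was at 38.4, 15.3 and 85.8 CPM in PBS and 161 and 103 CPM in AML (1.21 ± 0.414, edgeR adjusted p 0.389). In AML replicate 1, 67 of the 99 UMIs were in 1 cell, and in AML replicate 3, 549 of 778 were in cluster 8. With cluster 8 left out the groups overlapped, at 16.0, 1.81 and 32.5 CPM in PBS and 149.7 and 30.9 CPM in AML. Ccl4 was at 255, 88.5 and 67.6 CPM in PBS and 45.5 and 66.9 CPM in AML (-1.35 ± 0.400, edgeR adjusted p 0.289).

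In MPP-4, where Ccl3 and Ccl4 were highest, 0 of 5 genes passed, against 0.0325% of 12305 genes, with 2 (Ccl4 and Cxcl10) at an unadjusted p under 0.05, against 5.93% of genes. DESeq2 called 0 of the 7 genes in each class. Ccl4 and Cxcl10 did not overlap between groups after TMM scaling, against 27.8% of genes, and Ccl4 overlapped on plain CPM. Cxcl10 was at 1.04, 1.27 and 5.54 CPM in PBS and 19.97 and 12.5 CPM in AML (2.30 ± 0.519, edgeR adjusted p 0.120). The value of AML replicate 1 was 7 UMIs in 1 of 117 cells. The log2 difference was -0.41 ± 0.251 for Ccl3 (edgeR adjusted p 0.894), -1.07 ± 0.365 for Ccl4 (0.620) and -0.05 ± 0.279 for Ccl9 (0.995). Ccl5 was at 26.0, 9.63 and 78.0 CPM in PBS and at 97.0 and 49.2 CPM in AML (0.58 ± 0.487, edgeR adjusted p 0.928), and PBS replicate 3 lay between the AML libraries, with 252 of its Ccl5 UMIs in 1 MPP-4 cell.

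**Figure D5:**
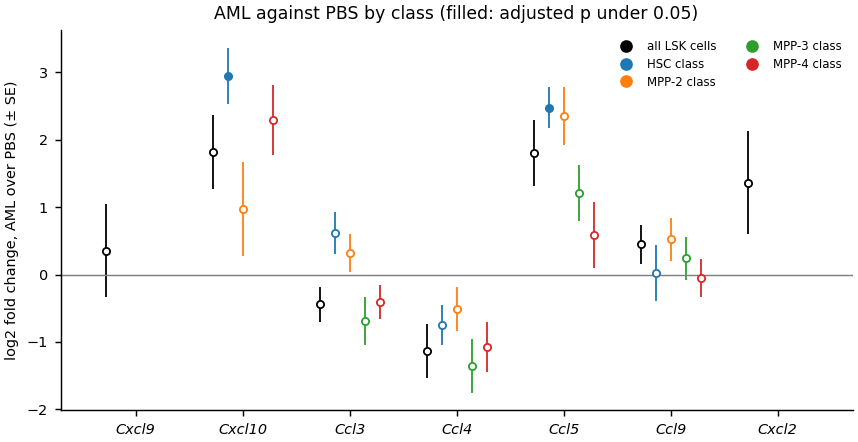
Log2 fold change of AML over PBS with its standard error (vertical axis; edgeR) for each gene in all LSK cells and in the 4 classes, with filled points at an adjusted p under 0.05 and no point where counts were too low to test. Only Cxcl10 (2.95) and Ccl5 (2.47) in the HSC class are filled, and Ccl4 is below 0 in all 5 comparisons.

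Whether the AML difference itself varied between classes was tested with class-by-treatment terms in edgeR. Of the 6 chemokine genes with enough counts, Ccl5 passed (adjusted p 0.0183), where 0.872% of 12734 genes did. Relative to the HSC class, its log2 difference was -0.62 for MPP-2, -1.49 for MPP-3, and -2.22 for the MPP-4 class. These are fitted values, and by the mean of the libraries Ccl5 was at 32.9 CPM in AML and 8.74 CPM in PBS in the HSC class, against 64.6 and 11.3 CPM in MPP-2. Leaving out PBS replicate 3 gave an adjusted p of 0.282, leaving out AML replicate 1 gave 0.0743 and leaving out AML replicate 3 gave 0.815, so the call rests on those 3 libraries. The adjusted p was 0.123 for Ccl3, 0.134 for Ccl9, 0.347 for Cxcl10, 0.569 for Ccl4 and 0.764 for Cxcl9.

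Other genes of the same system were followed over all LSK cells with the same fit, in which 0.160% of all tested genes passed and 10.5% had an unadjusted p under 0.05. Of 30 other chemokine ligands, 10 had enough counts and 0 passed (2 at an unadjusted p under 0.05), with a median log2 fold change of -0.0028, 5 of them higher in AML. The most abundant were Pf4, a platelet and megakaryocyte chemokine (-0.17 ± 0.252, edgeR adjusted p 0.826), Ccl27a (-0.57 ± 0.241, 0.431), whose reads can be shared with its near-identical copies, and Ccl25 (-0.11 ± 0.240, 0.894). Of 23 receptors, 12 were tested, 0 passed (3 at an unadjusted p under 0.05), 9 were higher and the median was 0.88. The median of the 7 genes described here was 0.45, with 5 higher, and that of all genes tested was -0.03.

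Among the receptors, Ccr2, the monocyte receptor for Ccl2, came closest (2.01 ± 0.394, edgeR adjusted p 0.0701), at 2.46, 0.783 and 2.75 TMM-normalized CPM in PBS and 9.81 and 7.89 in AML. Cxcr4, the receptor that holds stem cells in the marrow, was at 0.80 ± 0.370 (0.473), and Ccrl2 at -0.48 ± 0.314 (0.584). Of 20 inducers and signalling genes upstream of these chemokines, 18 were tested, 0 passed (2 at an unadjusted p under 0.05), 9 were higher and the median was 0.05. The most abundant were Jak1 (-0.29 ± 0.276, edgeR adjusted p 0.704), Nfkbia, the NF-kB inhibitor that NF-kB itself induces (0.38 ± 0.329, 0.675), and Ifngr1 (-0.36 ± 0.236, 0.589).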

How the data were processed

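Droplet single-cell RNA sequencing (Chromium GEM V3) was performed on sorted LSK cells in 3 PBS and 3 AML libraries. The authors deposited, for each library, unnormalized UMI counts by gene and barcode. Per the submitters' processing notes, the tools were Cell Ranger 7.0.1, R 4.2.2 and Seurat 4.3.0, and the builds named there are GRCm38 and mm10. The authors also deposited a cell table with UMI counts per cell, the percent of mitochondrial UMIs, module scores, a class and a cluster number. How the authors filtered cells, handled doublets, integrated libraries, and counted intronic or antisense reads is not given in the sources read here. No doublets were removed here.

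UMI counts of the kept cells were summed per library, and per library and class with at least 20 cells, and were tested with edgeR 4.0.16 (R 4.3.3; TMM, filterByExpr, two-sided quasi-likelihood test, Benjamini-Hochberg adjustment over all genes tested, threshold 0.05). The class difference was an F test of class-by-treatment terms with a term per library. CPM in the text is per plain total unless TMM is named. Shares of cells were thinned to 2000 UMIs per cell by the hypergeometric expectation and compared by an exact permutation test over the 10 splits. The scripts were tested on simulated data. Alternatives were DESeq2 1.42.0, limma 3.58.1 (voom), no filter, library size only, a block on replicate number, thinning, leaving out clusters 6 to 8 or 1 library, and an own filter on barcodes. Cells with a UMI in place of UMIs were added after seeing the data.

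All 7 genes were named in every comparison, and from each gene list every gene past the threshold and the 3 of highest mean CPM, and for each of the 7 the 3 most similar genes. The 7 genes and the lists were chosen with earlier results of these data known. Of the listed genes, 3 had no single entry in the files. The shared replicate numbers of PBS and AML libraries were not found to pair them, so no block was used. AML replicate 2 has no cell in the table and entered only with the own filter.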

Additional observations from a re-analysis of the deposited data

Results flagged for a closer look

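The AML difference of Ccl5 varied between classes (edgeR F test, adjusted p 0.0183). It was not past the threshold without PBS replicate 3, AML replicate 1 or AML replicate 3, as given above.

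Barcodes outside the authors' cell table, some of which entered the alternative with the own filter on barcodes and no other comparison, also carried these transcripts. For Cxcl10, Ccl5, Cxcl9 and Ccl9, 4 of the 7 genes, some AML libraries were above every PBS library, against 64.9% of the 14364 tested genes with at least 1 such AML library, so the count is not a result about these genes. Ccl5 in AML replicate 2, Ccl9 in AML replicate 1, and Ccl3, Ccl4 and Cxcl2 in each AML library were not. Cxcl10 was at 4.75 CPM (40 UMIs) in AML replicate 1, 13.5 CPM (96 UMIs) in AML replicate 2 and 16.0 CPM (113 UMIs) in AML replicate 3, against at most 2.75 CPM in PBS. Ccl5 was at 109 CPM (914 UMIs) in AML replicate 1 and 110.5 CPM (781 UMIs) in AML replicate 3, against at most 49.9 CPM in PBS. Cxcl9 was at 4.67 CPM (33 UMIs) in AML replicate 3, and at 0.594 CPM (5 UMIs) and 0.564 CPM (4 UMIs) in AML replicates 1 and 2, against at most 0.550 CPM in PBS. Ccl9 was at 71.2 CPM (505 UMIs) in AML replicate 2 and 40.5 CPM (286 UMIs) in AML replicate 3, against at most 39.3 CPM in PBS. What these barcodes hold was not tested.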

How the results depend on the processing

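The number of genes called over all LSK cells (23) was 72 with DESeq2, 392 with no filter, 90 with the replicate block on numbers 1 and 3, 9 with thinned cells, 65 with cells in place of UMIs, 75 with the own filter, and 2 to 419 without 1 library. For the HSC class (19) it was 0, 29 and 11 with DESeq2, no filter and the block, 2 with cells in place of UMIs, and 0 to 17 without 1 library. For MPP-2 (5) it was 14 with DESeq2, 156 with no filter, 34 with cells, and 0 to 84. For MPP-3 (5) it was 11 with DESeq2, 166 with no filter, 10 with the block, 14 without clusters 6 to 8, 9 with cells, and 2 to 69. For MPP-4 (4) it was 1 with DESeq2, 75 with no filter, 39 with the block, 31 with cells, and 0 to 34. For the class difference (111) it was 506 with no filter, 233 without clusters 6 to 8, and 29 to 189. Of the 7 chemokine genes, all LSK cells gave 3 calls with no filter, 1 with the block, 2 with cells, 1 with the own filter and 0 to 1 without 1 library. The HSC class gave 0 with DESeq2 or cells and 0 to 2 without 1 library. MPP-2 gave 1 with no filter, the block or cells and 0 to 1 without 1 library, MPP-3 gave 3 with no filter and 0 to 1, MPP-4 gave 2 with no filter and 1 with the block, and the class difference gave 4 with no filter and 0 to 2. The cause of these moves was not tested.

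Same-numbered libraries did not deviate together (correlations -0.057 for number 1 and -0.055 for number 3), so the numbers name samples only. With the replicate block Ccl5 passed over all LSK cells (1.42, edgeR adjusted p 0.00611) and in MPP-2 (2.08, 0.00314), Ccl4 in MPP-4 (-1.22, 0.0426), and Cxcl9 (-0.36) and Ccl9 in the HSC class (-0.47) turned in sign. Other turns in sign were of differences that had not passed: Pf4 thinned (0.19), Ccl9 in the HSC class (-0.0013) and Cxcl10 in MPP-3 relative to HSC (0.18), both without clusters 6 to 8.

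Without 1 library, the log2 differences that turned in sign ranged from -6.46 to 0.64 for Cxcl9, -0.13 to 0.77 for Ccl9, -0.28 to 0.078 for Pf4, -0.54 to 0.10 for Ccl25 and -0.56 to 0.91 for Nfkbia over all LSK cells. They ranged from -7.64 to 2.73 for Ccl5 and -0.24 to 0.40 for Ccl9 in the HSC class, -1.82 to 1.34 for Cxcl10 and -0.41 to 0.85 for Ccl9 in MPP-2, and for Ccl9 from -0.21 to 0.50 in MPP-3 and -1.39 to 0.19 in MPP-4. Relative to HSC, Cxcl9 ranged from -0.43 to 0.59 in MPP-2 and -0.95 to 1.23 in MPP-3, Cxcl10 from -1.53 to 0.39 in MPP-3 and -1.34 to 1.11 in MPP-4, Ccl5 from -0.72 to 10.67 in MPP-2, -2.18 to 9.84 in MPP-3 and -2.96 to 9.41 in MPP-4, Ccl9 from -0.41 to 0.86 in MPP-2 and -1.35 to 0.25 in MPP-4, Ccl3 from -0.45 to 0.21 in MPP-2, and Ccl4 from -0.53 to 0.025 in MPP-3 and -0.40 to 0.24 in MPP-4. The share of cells differed by -0.110 to 0.0416 percentage points for Cxcl9, -0.585 to 2.87 for Ccl9 and -0.0620 to 0.04003 for Cxcl2. Leaving out an AML library leaves 1, which is then assumed to vary like PBS. Depth limits Cxcl9 and Cxcl2 throughout and the HSC class of AML replicate 1, with 61292 UMIs in 23 cells.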
